A study of Mus musculus with 12 samples.

Results

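Cytokines of the IL6 family, their receptors and the transcription factor STAT3 with its feedback inhibitor SOCS3 were examined in the normal and the damaged retina of B6 and 129 mice. The 10 genes considered were Il6, Lif, Cntf, Clcf1, Osmr, Il6st, Lifr, Il6ra, Socs3 and Stat3, and every probe set that carried only the symbol of such a gene was taken. This gave 25 probe sets of 9 genes among the 45037 probe sets of the array that were tested. Cntf was left without a value, because the probe set that names it, 1422033_a_at, carries 3 symbols.

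RNA of neural retina from mice 10 weeks old was measured on Affymetrix arrays of the whole mouse genome, 12 arrays in 6 groups of 2. The B6 animals were C57BL/6NCrSlc and the 129 animals 129X1/SvJJmsSlc, and no label names a transgene or a deleted gene. In each strain the groups were intact whole retina ("normal"), retinal explants cultured for 3 days ("3DIV", days in vitro) with vehicle, and explants cultured for 3 days with the GSK3 inhibitor CHIR99021, at 15 µM by the labels. The explant culture was itself the damage, so that removal from the eye, time in culture and retinal injury cannot be told apart. All values are RMA intensities on the log2 scale, and a probe set was called when limma gave an adjusted p under 0.05 over all 45037 probe sets.

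Cytokines of this family bind a receptor chain of their own, and the signal is passed on by the shared chain gp130, the product of Il6st, alone or with LIFR or OSMR. The receptors activate JAK kinases, which phosphorylate STAT3, and STAT3 in the nucleus raises transcription of many genes, Socs3 among them, whose product blocks the receptor and the kinase. In the injured retina this pathway is known for the response of Müller glia and for the survival of photoreceptors that LIF and CNTF support.

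Median linear intensities of the arrays lay between 68.8 and 70.7, and the correlation between the 2 arrays of a group over all probe sets was 0.9965 to 0.9978. The tissue label was borne out by rod genes, whose summed intensity over the 7 measured of 9 listed was 79075 to 80085 in the normal retina and fell to 36439 to 42236 in the vehicle explants. Lens genes stood apart on 129 normal replicate 2, with a summed intensity of 24924 against 955 on 129 normal replicate 1 and 193 to 243 on the other arrays. Pigmented epithelium genes summed to 4417 to 11622 in the normal retinas and to 238 to 336 in the explants. Whether the normal samples held tissue beside the neural retina was not tested. Microglia and macrophage genes moved with strain and culture, from 1052 to 1586 in the normal retinas to 5808 to 6150 in B6 vehicle explants and 2381 to 2472 in 129 vehicle explants. In whole tissue, fewer cells of a type and less RNA per cell cannot be told apart.

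After damage most of these genes rose in both strains. In B6, 16 of the 25 probe sets were called higher and 1 lower, where 14.9% of all probe sets were called higher and 16.6% lower. In 129, 18 of 25 were called higher and 0 lower, against 14.7% and 15.9% of all probe sets. The unadjusted limma p was under 0.05 for 19 of the 25 in B6 and 20 in 129. Without 129 normal replicate 2, on which lens genes were high, 17 of 25 were called higher in 129. The 8 genes with a probe set called higher were the same in B6 and 129, namely Il6, Lif, Clcf1, Osmr, Il6st, Il6ra, Stat3 and Socs3, and Lifr was the exception. The median difference of the 25 was 0.94 in B6 and 1.01 in 129 on the log2 scale, while the median over all probe sets was -0.02 and -0.03. All 7 measured rod genes were lower in the explants of both strains, and the part of that shift in cell makeup in these values was not tested. The change in 129 minus that in B6 had a median of 0.26 over the 25, with an unadjusted limma p under 0.05 for 10. By call the size of the change differed between strains in 4 probe sets, 2 larger in 129 (Il6 and Osmr) and 2 larger in B6 (both of Socs3). Of all probe sets 1.55% and 1.03% were called in these directions. That count of 4 fell to 2 without B6 3DIV replicate 1, B6 3DIV replicate 2, 129 normal replicate 1, 129 3DIV replicate 1 or 129 3DIV replicate 2.

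**Figure D1:**
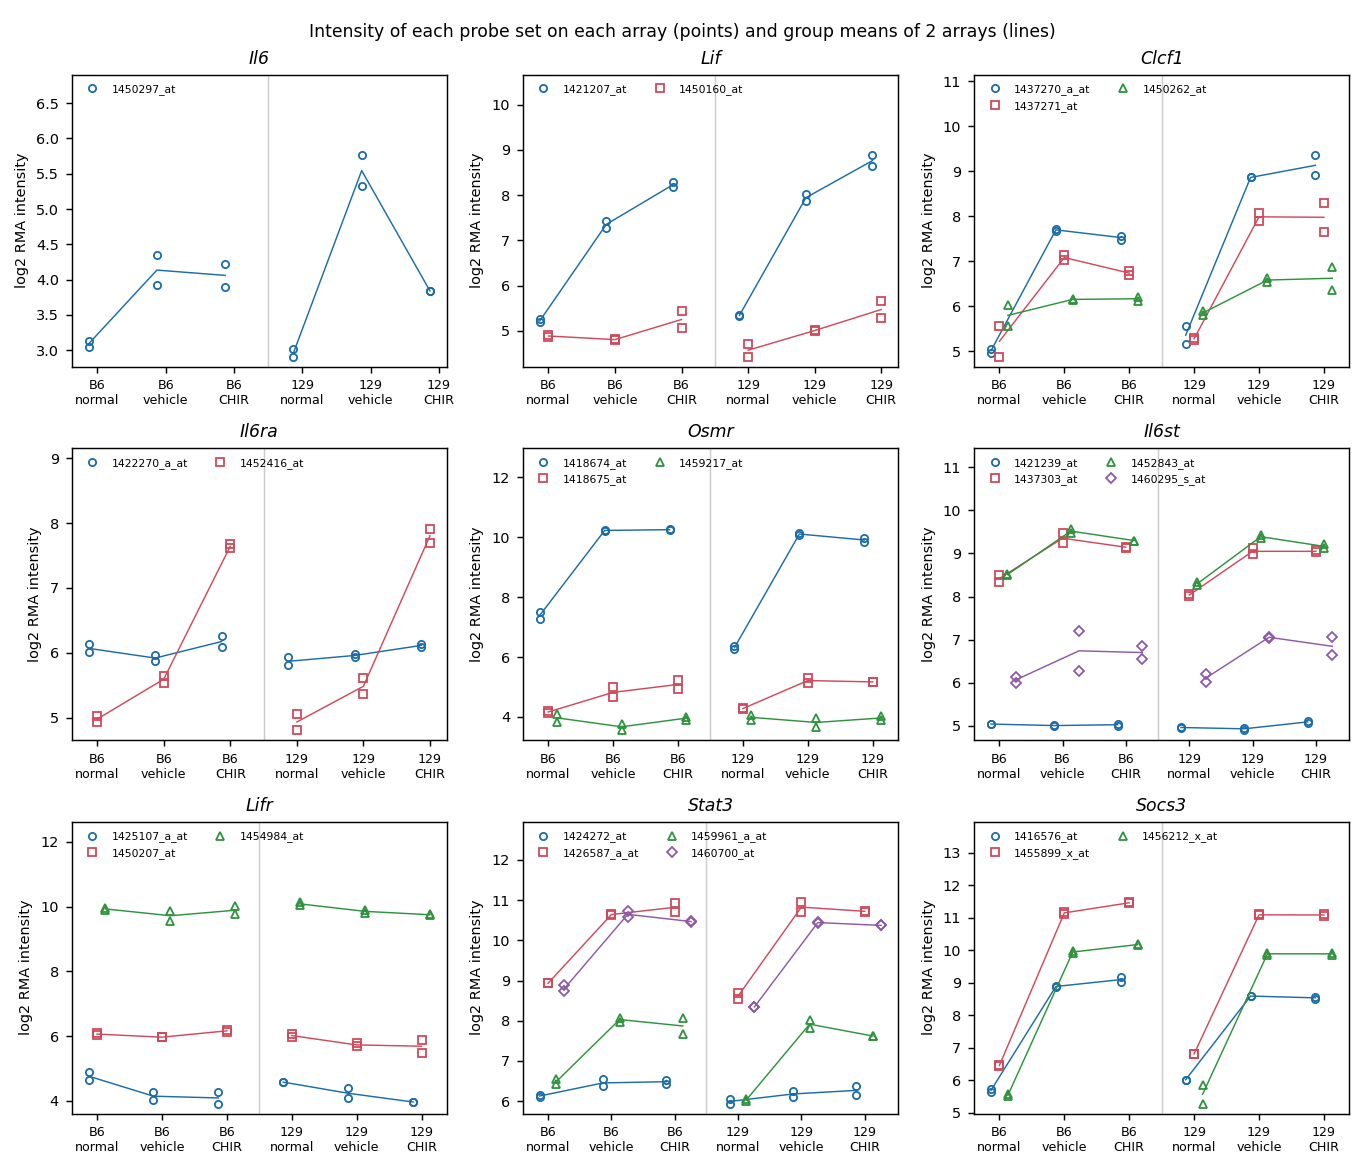
Log2 RMA intensity (vertical axis) of all 25 probe sets in the 6 groups (horizontal axis; vehicle and CHIR are explants at 3DIV), 1 panel per gene; points are arrays, lines join the means of 2 arrays within a strain. Il6 stands highest in 129 vehicle explants, at 5.33 and 5.76, and Il6ra probe set 1452416_at rises with CHIR99021 in both strains.

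Among the ligands, Il6, the cytokine that acts through IL6RA and gp130, rose more in 129 than in B6. Its probe set 1450297_at read 3.13 and 3.05 in the normal B6 retina and 3.01 and 2.91 in the normal 129 retina. In vehicle explants it read 3.92 and 4.35 in B6 and 5.76 and 5.33 in 129. Both 129 explants stood above both B6 explants, and all explants above all normal retinas. Normal values of Il6 were near the 5th percentile of all log2 values on the arrays, 3.08, and the deposited values carry no detection call, so the normal level may lie at background and the sizes of the rise are then no more than lower bounds. On the measured values the rise was 2.06-fold in B6 (log2 1.04, SE 0.16, limma adjusted p = 5.78e-04) and 5.97-fold in 129 (log2 2.58, SE 0.16, limma adjusted p = 6.19e-07). The measured change in 129 exceeded that in B6 by 1.53 (SE 0.23, limma adjusted p = 0.00813), and this difference lay between 1.32 and 1.75 when any 1 array was left out. Its size depends on the normal values too, and the gene has this 1 probe set only.

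Lif, a cytokine that signals through LIFR and gp130, was also induced in both strains. Probe set 1421207_at read 5.25 and 5.19 in the normal B6 retina and 7.28 and 7.43 in B6 vehicle explants. In 129 it read 5.36 and 5.32 in the normal retina and 8.02 and 7.87 in vehicle explants. The explants were thus apart from the normal retinas by far more than the arrays of a group were from each other. The rise was 2.13 on the log2 scale in B6 and 2.60 in 129, and the difference of 0.47 between strains (SE 0.14, limma adjusted p = 0.11) did not pass the test. The other Lif probe set, 1450160_at, read 4.43 to 5.02 on the normal and vehicle arrays, was not called in B6 (-0.08) and was called higher in 129 (0.44), a call that ended without 129 normal replicate 1, either B6 vehicle array or either 129 vehicle array, with limma adjusted p of 0.0519 to 0.235.

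Clcf1, which encodes a cytokine that acts on the CNTF receptor, rose to a higher level in 129. Probe set 1437270_a_at read 5.05 and 4.97 in the normal B6 retina and 5.15 and 5.56 in the normal 129 retina, a strain difference of 0.35 that was not called (limma adjusted p = 0.177). In vehicle explants it read 7.67 and 7.72 in B6 and 8.86 on each array in 129. The change was 6.45-fold in B6 (log2 2.69, SE 0.15, limma adjusted p = 2.61e-07) and 11.4-fold in 129 (log2 3.51, SE 0.15, limma adjusted p = 3.27e-08). The 2 arrays of each explant group were almost equal, and the strains did not overlap there. The difference between these changes was 0.82 (SE 0.21, limma adjusted p = 0.0723) and was called in 3 of the 12 fits without 1 array and in 2 of 5 alternatives. Probe set 1437271_at rose by 1.86 and 2.71 in B6 and 129, and 1450262_at by 0.73 in 129, with 0.35 in B6 that was not called.

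**Figure D2:**
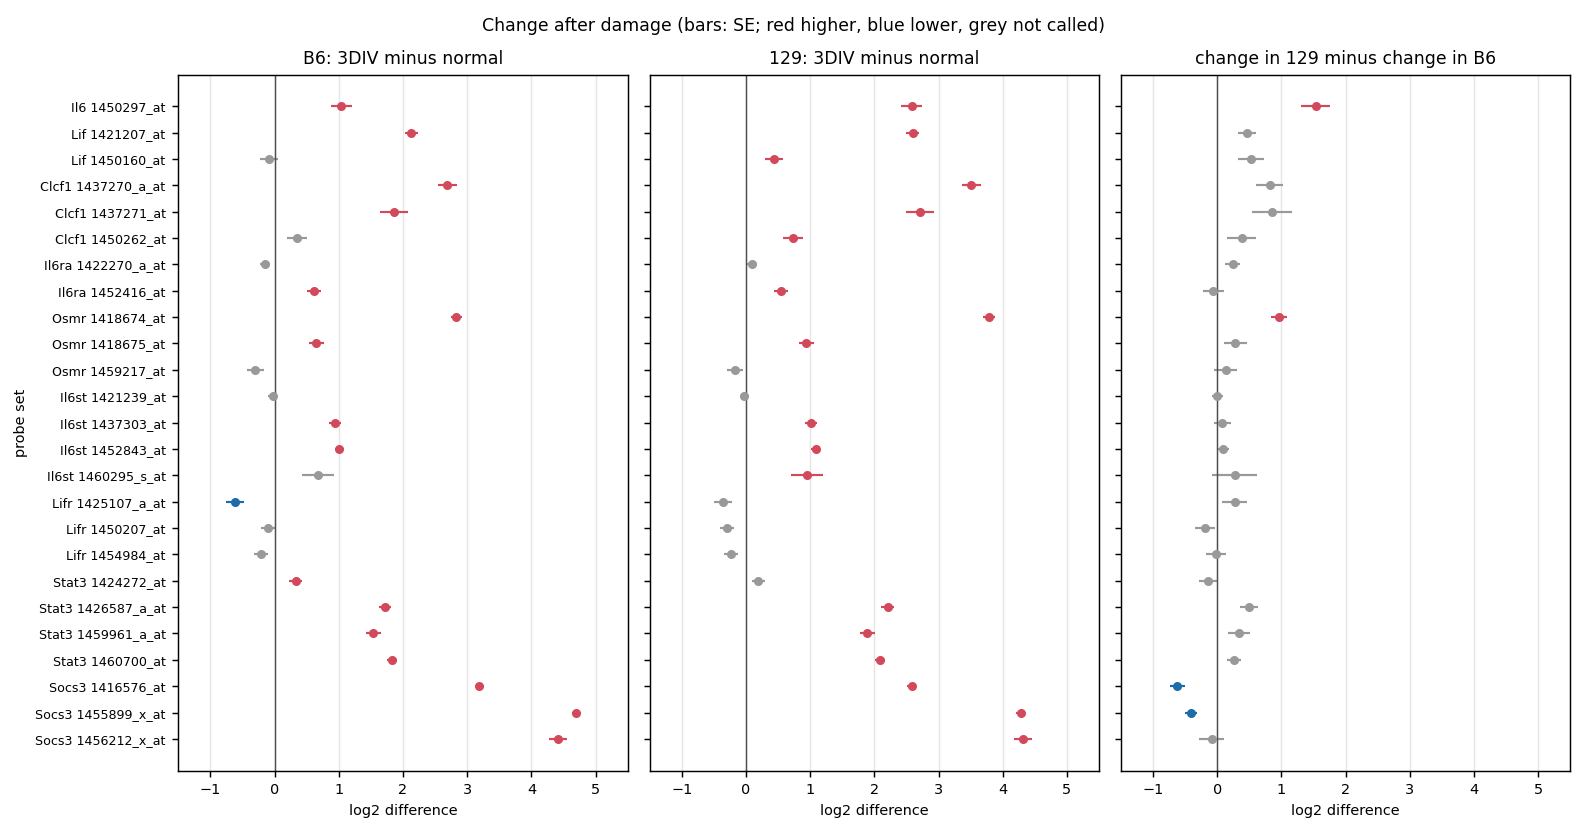
Log2 difference with its SE (horizontal axis) between vehicle explants at 3DIV and normal retina for each of the 25 probe sets (vertical axis), in B6, in 129, and as 129 change minus B6 change. Il6 and Osmr 1418674_at are called with a larger rise in 129 (1.53 and 0.96), and Socs3 probe sets 1416576_at and 1455899_x_at with a smaller one (-0.62 and -0.41).

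Among the receptors, Osmr, the oncostatin M receptor chain that pairs with gp130, changed most. Probe set 1418674_at read 7.52 and 7.27 in the normal B6 retina and 6.26 and 6.37 in the normal 129 retina. In vehicle explants it read 10.24 and 10.22 in B6 and 10.15 and 10.07 in 129. The strains were apart in the normal retina and came within 0.12 of each other, as group means, after damage. The rise was 7.13-fold in B6 (log2 2.83) and 13.8-fold in 129 (log2 3.79), and it differed by 0.96 (SE 0.13, limma adjusted p = 0.00498), which stayed called without any 1 array. The strain difference in the normal retina was -1.08 (SE 0.09, limma adjusted p = 2.95e-05) and in the vehicle explants -0.12 (SE 0.09, limma adjusted p = 0.418). Osmr 1418675_at rose by 0.65 and 0.94, and these changes did not differ by call (0.28, SE 0.18, limma adjusted p = 0.455). Its strain difference in the normal retina was 0.12 (limma adjusted p = 0.625), so both strain results of Osmr rest on 1418674_at. Probe set 1459217_at, at 3.56 to 4.11 on all 12 arrays, was not called in any of the 9 comparisons.

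Il6st, the gp130 chain shared by the family, rose about as much in B6 as in 129. Probe set 1452843_at read 8.53 and 8.49 in the normal B6 retina, 8.33 and 8.27 in the normal 129 retina, 9.57 and 9.47 in B6 vehicle explants and 9.42 and 9.36 in 129 vehicle explants. Explants were above normal retinas on every array of both strains. The rise was 2.01-fold in B6 (log2 1.01, SE 0.07, limma adjusted p = 1.75e-06) and 2.13-fold in 129 (log2 1.09, SE 0.07, limma adjusted p = 8.38e-07), with a difference of 0.09 (SE 0.10) between them. Probe set 1437303_at gave 0.94 and 1.01. Probe set 1460295_s_at, whose suffix marks probes that can match more than 1 transcript, gave 0.68 in B6 (SE 0.25), which was not called, and 0.95 in 129, a call that ended without 129 normal replicate 2 or either 129 vehicle array, with limma adjusted p of 0.0548 to 0.0747. Its B6 vehicle arrays read 6.27 and 7.21 and differed more from each other than any other pair of this gene. Probe set 1421239_at stayed between 4.90 and 5.11.

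Il6ra, the receptor chain that binds IL6 itself, showed a small rise at 1 of 2 probe sets. Probe set 1452416_at read 4.94 and 5.02 in normal B6 retina and 5.65 and 5.54 in B6 vehicle explants, a change of 0.61 (SE 0.11, limma adjusted p = 0.00189). In 129 it read 5.06 and 4.81, then 5.61 and 5.36, a change of 0.55 (SE 0.11, limma adjusted p = 0.00359). Explants and normal retinas did not overlap in either strain, and the strains did overlap in both states. Probe set 1422270_a_at lay between 5.81 and 6.26 on all arrays and was not called.

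Lifr, the LIF receptor chain, was the exception among the receptors. Probe set 1454984_at read 9.97 and 9.89 in the normal B6 retina and 9.87 and 9.57 in B6 vehicle explants, and 10.13 and 10.04 then 9.80 and 9.91 in 129. None of its 9 comparisons was called. Probe set 1425107_a_at read 4.88 and 4.64 in normal B6 retina and 4.01 and 4.27 in B6 vehicle explants, a fall of -0.62 (SE 0.14, limma adjusted p = 0.00645) that ended without B6 normal replicate 1 or B6 3DIV replicate 1, with limma adjusted p of 0.0561 and 0.0649. In 129 the same probe set gave 4.58 and 4.57, then 4.07 and 4.39, and was not called.

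Stat3, the transcription factor on which these receptors converge, rose in both strains at 3 of its 4 probe sets. Probe set 1426587_a_at read 8.93 on each normal B6 array and 8.54 and 8.68 on the normal 129 arrays. In vehicle explants it read 10.65 and 10.63 in B6 and 10.71 and 10.94 in 129. The normal 129 values lay below the normal B6 values (log2 -0.32, limma adjusted p = 0.0634), and the vehicle explants of 129 above those of B6 (0.18, limma adjusted p = 0.234), with no call in either state. Its rise was 1.72 in B6 and 2.21 in 129 on the log2 scale (SE 0.10 each), and the difference of 0.50 (SE 0.14, limma adjusted p = 0.0925) did not pass the test. Probe sets 1460700_at and 1459961_a_at rose by 1.83 and 1.54 in B6 and by 2.09 and 1.89 in 129. Probe set 1424272_at gave 0.33 in B6, a call that ended without either normal B6 array or B6 3DIV replicate 2, with limma adjusted p of 0.0713 to 0.177.

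Socs3, the feedback inhibitor, showed the largest rise of the 25 probe sets in both strains. Probe set 1455899_x_at read 6.45 and 6.46 in the normal B6 retina and 11.18 and 11.12 in B6 vehicle explants, 25.9-fold higher (log2 4.70, limma adjusted p = 5.66e-11). In 129 it read 6.82 and 6.80, then 11.10 and 11.08, 19.5-fold higher (log2 4.28, limma adjusted p = 7.51e-11). The normal 129 values stood above the normal B6 values, and the explants of both strains were nearly level. Probe set 1456212_x_at rose by 4.41 and 4.32, and 1416576_at by 3.19 and 2.58. The suffix x marks probe sets in which some probes also match other sequences, and 1416576_at, without that mark, gave the smaller changes.

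The rise of Socs3 was smaller in 129 by 0.62 at 1416576_at (log2 -0.62, SE 0.11, limma adjusted p = 0.0156). There the normal retina read 5.64 and 5.74 in B6 and 6.02 and 6.01 in 129, and vehicle explants read 8.90 and 8.87 in B6 and 8.58 and 8.60 in 129. The strains did not overlap in either state, and their order turned between them. This call ended without 129 normal replicate 1, either B6 vehicle array or either 129 vehicle array, with limma adjusted p of 0.0504 to 0.0613. At 1455899_x_at the difference was -0.41 (SE 0.09, limma adjusted p = 0.0464), and it ended without any 1 of the 12 arrays, with limma adjusted p of 0.0623 to 0.152, with the replicate block (0.0704) and with the compared arrays alone (0.0868). At 1456212_x_at it was -0.09 (SE 0.20) and was not called.

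Promoter windows of RefSeq genes, 250 bases before to 50 after a start on GRCm38.p6, were searched on both strands for the letters of a STAT site, TTCNNNGAA, and of an AP-1 site, TGANTCA, where N is any base. Of the 10 genes, 9 had a window, 10 windows in all. The STAT letters were in 1 of these, that of Socs3, and in 8.3% of all 32851 windows. The AP-1 letters were in windows of 4 genes, Il6, Lif, Cntf and Osmr, and in 7.81% of all windows. The 250 bases before the start are shown for the inhibitor with the STAT letters and for the induced cytokines with AP-1 letters, 5′ to 3′, with the matched letters in capitals. The capitals begin 154 bases before the start in Socs3, 249 in Il6 and 228 in Lif.
Socs3, chr11:117969367-117969616, minus strand: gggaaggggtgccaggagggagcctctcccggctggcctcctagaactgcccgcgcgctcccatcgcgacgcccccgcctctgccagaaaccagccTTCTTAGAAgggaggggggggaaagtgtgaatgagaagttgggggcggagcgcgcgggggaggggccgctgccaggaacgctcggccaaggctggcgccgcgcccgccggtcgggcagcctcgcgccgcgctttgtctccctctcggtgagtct
Il6, chr5:30012864-30013113, plus strand: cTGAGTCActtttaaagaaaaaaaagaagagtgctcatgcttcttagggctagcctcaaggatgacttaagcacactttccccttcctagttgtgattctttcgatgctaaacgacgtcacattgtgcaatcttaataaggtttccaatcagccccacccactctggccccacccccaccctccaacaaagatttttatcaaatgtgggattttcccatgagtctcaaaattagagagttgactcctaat
Lif, chr11:4257318-4257567, plus strand: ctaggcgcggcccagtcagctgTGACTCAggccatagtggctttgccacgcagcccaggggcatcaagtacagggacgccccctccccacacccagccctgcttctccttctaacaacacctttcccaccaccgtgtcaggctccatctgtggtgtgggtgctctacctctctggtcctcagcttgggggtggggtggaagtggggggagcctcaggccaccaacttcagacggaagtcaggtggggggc

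A match describes the letters only, since neither STAT3 nor AP-1 binding was measured.

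The GSK3 inhibitor moved few of these genes. In B6 explants 3 of the 25 probe sets were called higher with CHIR99021 than with vehicle and 0 lower, against 9.42% and 9.18% of all probe sets. Of the 25, 10 had an unadjusted limma p under 0.05 in B6, and with a trended, robust eBayes step 5 were called, 1 of them lower. In 129 explants 2 were called higher and 1 lower, against 5.87% and 6.38%. The shares called were near those of the whole array, and the genes concerned were Il6ra, Lif, Socs3 and Il6. The effect differed between strains in 1 probe set, that of Il6, which was lower in 129 relative to B6, against 0.966% of all probe sets in that direction and 0 against 0.389% in the other, while the unadjusted limma p was under 0.05 for 3 of the 25.

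Il6ra was the member that responded most to CHIR99021. Probe set 1452416_at read 7.61 and 7.68 in B6 explants with the inhibitor against 5.65 and 5.54 with vehicle, 4.16-fold higher (log2 2.06, SE 0.11, limma adjusted p = 4.31e-06). In 129 it read 7.70 and 7.91 against 5.61 and 5.36, 4.99-fold higher (log2 2.32, SE 0.11, limma adjusted p = 2.29e-06). All 4 arrays with the inhibitor stood above all other arrays, with no overlap, and the effects differed between strains by 0.26 (SE 0.16, limma adjusted p = 0.494). The other Il6ra probe set, 1422270_a_at, gave 0.26 in B6 (SE 0.08, limma adjusted p = 0.058) and 0.16 in 129 (SE 0.08, limma adjusted p = 0.275), so the 2 probe sets of the gene did not give the same size.

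Il6 fell with the inhibitor in 129. It read 3.84 on each of the 129 arrays with CHIR99021 against 5.76 and 5.33 with vehicle, a fall of 3.26-fold (log2 -1.70, SE 0.16, limma adjusted p = 1.23e-04). In B6 it read 4.22 and 3.90 against 3.92 and 4.35, a difference of -0.07 (SE 0.16, limma adjusted p = 0.82). With the inhibitor the 129 values came below both B6 values, although the strain difference of -0.22 there was not called. The effects differed by -1.63 (SE 0.23, limma adjusted p = 0.00952), which lay between -1.85 and -1.42 without any 1 array. The larger rise after damage and the fall with the inhibitor in 129 share the same 2 vehicle arrays and are not separate evidence of a high value there. All values of Il6 were low, with every array below the median of all log2 values, 6.13.

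Microglia and macrophage genes, of cells that can make IL6, were read beside these values. All 11 listed were measured, and their summed intensity was 6150 and 5808 in B6 vehicle explants, 2575 and 2801 in B6 with the inhibitor, 2472 and 2381 in 129 with vehicle and 1555 and 1553 in 129 with the inhibitor. In the normal retina it was 1586 and 1511 in B6 and 1077 and 1052 in 129. Within 129 the groups took the same order as for Il6, lowest in normal retina and highest with vehicle. Within B6 the summed intensity was lower with the inhibitor than with vehicle, while Il6 was not called there (-0.07, limma adjusted p = 0.82). With CHIR99021, 9 of the 11 were called lower in B6 (median -1.20), and 7 lower with 1 higher in 129 (median -0.63). Of all genes 12.5% were called lower in B6, and 7.86% lower and 7.28% higher in 129. In the vehicle explants 10 of the 11 were lower in 129 than in B6, against 10.2% of all genes, while Il6 was higher in 129. The part of these cells in the Il6 values was not tested.

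Lif rose further with the inhibitor in both strains. Probe set 1421207_at read 8.17 and 8.29 in B6 and 8.88 and 8.65 in 129, above every vehicle array of its strain. The effect was 0.87 in B6 (SE 0.10, limma adjusted p = 2.25e-04) and 0.82 in 129 (SE 0.10, limma adjusted p = 5.04e-04), with -0.06 (SE 0.14) between strains. Socs3 1455899_x_at read 11.47 and 11.45 in B6 with the inhibitor, 0.31 above vehicle (limma adjusted p = 0.00865), a call that ended without B6 3DIV replicate 2 (limma adjusted p = 0.0603) and when the compared arrays alone were fitted (limma adjusted p = 0.0504). In 129 the same probe set read 11.05 and 11.12 and was level with vehicle, and the difference between strains of -0.31 (SE 0.09, limma adjusted p = 0.154) did not pass the test. Clcf1, Osmr, Il6st, Lifr and Stat3 had no call with the inhibitor in either strain, and their differences lay between -0.35 and 0.29.

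**Figure D3:**
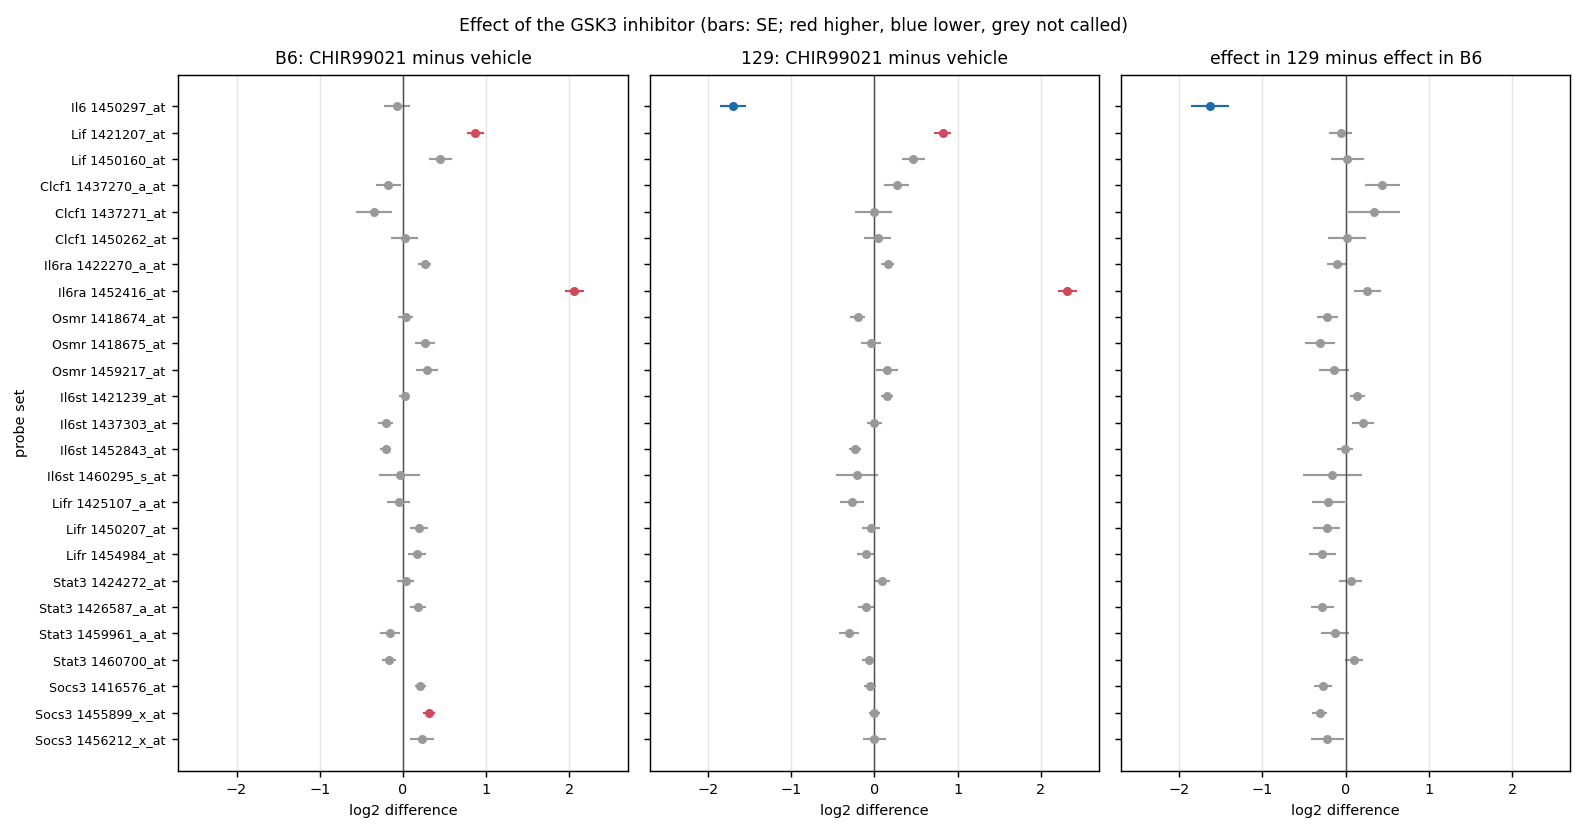
Log2 difference with its SE (horizontal axis) between explants with CHIR99021 and with vehicle for each of the 25 probe sets (vertical axis), in B6, in 129, and as 129 effect minus B6 effect. Il6ra 1452416_at lies at 2.06 and 2.32, Lif 1421207_at at 0.87 and 0.82, and Il6 at -0.07 in B6 and -1.70 in 129.

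Strain differences, 129 minus B6, were then read within each state. In the normal retina 2 probe sets were called higher in 129 and 4 lower, against 6.07% and 5.45% of all probe sets. The higher ones were Socs3 1455899_x_at (0.35, limma adjusted p = 0.00573) and Socs3 1416576_at (0.32, limma adjusted p = 0.0175). The lower ones were Osmr 1418674_at (-1.08), Stat3 1460700_at (-0.46, limma adjusted p = 0.00313), Stat3 1459961_a_at (-0.46, limma adjusted p = 0.035) and Il6st 1437303_at (-0.38, limma adjusted p = 0.0231). Of these, Osmr and Stat3 1460700_at stayed called in all alternatives and without any 1 array, whereas the count of 6 fell to 3 without 129 normal replicate 1, without 129 normal replicate 2, or with the compared arrays alone. The calls lost without an array were those of Stat3 1459961_a_at in 8 of 12 such fits and of Il6st 1437303_at and Socs3 1416576_at in 3 each, and the lens genes were high on 129 normal replicate 2.

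In vehicle explants, of the 25 probe sets 5 were called higher in 129 and 2 lower, against 11.4% and 8.57% of all probe sets. Il6 was 2.66-fold higher (log2 1.41, SE 0.16, limma adjusted p = 1.82e-04), Clcf1 1437270_a_at 2.24-fold (log2 1.16, SE 0.15, limma adjusted p = 3.53e-04) and Lif 1421207_at 1.5-fold (log2 0.59, SE 0.10, limma adjusted p = 0.00174). These 3 calls held without any 1 array, while the other probe sets of these ligands, Lif 1450160_at (0.20, limma adjusted p = 0.372) and Clcf1 1450262_at (0.43, limma adjusted p = 0.0913), were not called. Clcf1 1437271_at (0.90), Osmr 1418675_at (0.40), Il6st 1437303_at (-0.31) and Socs3 1416576_at (-0.29) were also called, and lost the call in 4, 9, 9 and 4 of the 12 fits without 1 array, so that the count of 7 fell to 3 without B6 3DIV replicate 1, 129 3DIV replicate 1 or 129 3DIV replicate 2.

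With the inhibitor 3 probe sets were called higher in 129 and 4 lower, against 6.01% and 4.88% of all probe sets. Clcf1 stayed higher in 129, reading 9.35 and 8.91 at 1437270_a_at against 7.57 and 7.48 in B6, 3.04-fold (log2 1.61, SE 0.15, limma adjusted p = 5.06e-05), and its probe set 1437271_at gave 1.24. Lif was higher by 0.53 (limma adjusted p = 0.00472, and 0.0529 without 129 3DIV GSK3 inhibitor replicate 1). Socs3 was lower in 129, by 0.56 at 1416576_at (log2 -0.56, limma adjusted p = 6.65e-04) and 0.37 at 1455899_x_at (log2 -0.37, limma adjusted p = 0.00402), each without overlap of arrays. Not called were the remaining probe sets of these genes. They were Clcf1 1450262_at (0.46, limma adjusted p = 0.112), Lif 1450160_at (0.22, limma adjusted p = 0.4) and Socs3 1456212_x_at (-0.28, limma adjusted p = 0.26). Osmr 1418674_at (-0.34) and Lifr 1450207_at (-0.47) were also called lower and lost the call in 8 and 3 of the 12 fits without 1 array.

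**Figure D4:**
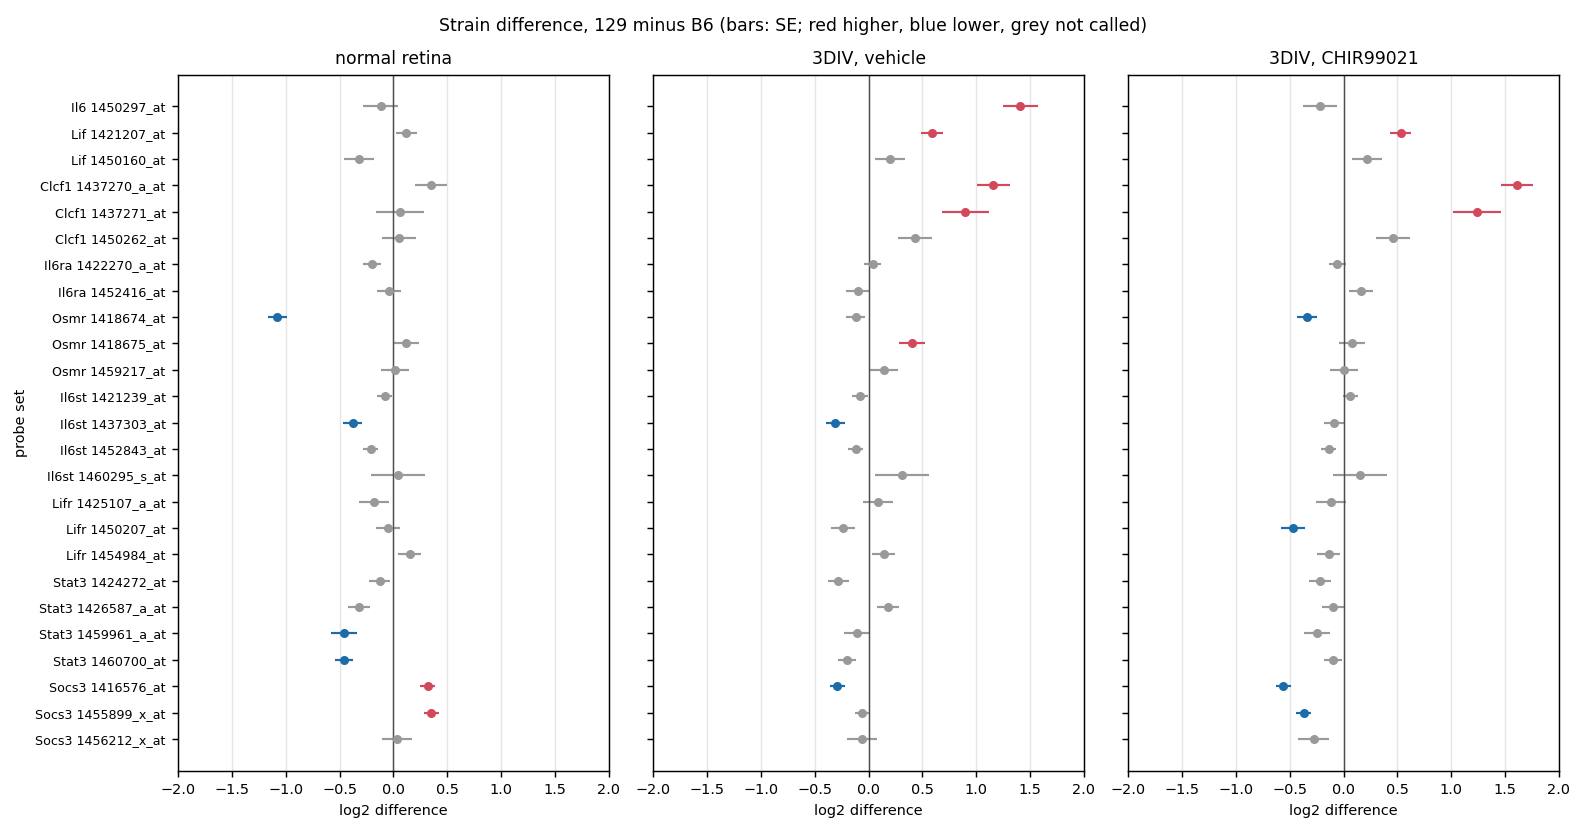
Log2 difference 129 minus B6 with its SE (horizontal axis) for each of the 25 probe sets (vertical axis) in normal retina, vehicle explants and explants with CHIR99021. Osmr 1418674_at is lowest in normal 129 retina (-1.08), Il6, Clcf1 and Lif are higher in 129 vehicle explants, and Clcf1 reaches 1.61 with the inhibitor.

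The rest of the pathway was described with 4 gene lists, each gene by its probe set of highest mean, beside all 18193 genes taken the same way. Of the other family members, 8 of 12 were measured, and after damage 1 rose and 1 fell in each strain. These were Il11, a gp130 cytokine, with 0.41 in B6 and 0.54 in 129, and Ctf1, which encodes cardiotrophin 1, with -0.49 and -0.65. Among all genes the shares called higher and lower were 19.3% and 16.9% in B6, and 19.1% and 17% in 129. Il11 lost its call in 5 of 12 fits without 1 array in B6 and in 2 of 12 in 129 (limma adjusted p up to 0.209 and 0.0931), and Ctf1 in 2 of 12 in B6 (up to 0.0745). Osm, the ligand of the induced receptor Osmr, read 4.95 to 5.30 on all 12 arrays and was not called.

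Of JAK, STAT and adaptor genes 12 of 13 were measured, and 6 were higher and 1 lower after damage in B6, and 6 higher and 0 lower in 129. Over all genes 19.3% were called higher and 16.9% lower in B6, and 19.1% and 17% in 129. Stat2, a transcription factor of interferon signalling, read 6.22 and 6.11 in normal B6 retina and 8.16 and 8.45 in vehicle explants, and 5.94 and 6.20, then 8.27 and 8.40, in 129. It rose by 2.14 in B6 and 2.26 in 129 (SE 0.11 each), and the list's median was 0.26 and 0.29. Without 129 normal replicate 2 the count in 129 was 4 of 12. With the inhibitor 4 were lower in B6 and 2 in 129, where 12.5% and 7.86% of all genes were lower, led by Stat5b (-0.77 and -0.61).

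Of the negative regulators other than SOCS3, 14 of 14 were measured and went both ways after damage. In B6, 4 were called higher and 6 lower, against 19.3% and 16.9% of all genes. In 129, 5 were called higher and 4 lower, against 19.1% and 17%. The list's medians were 0.03 and 0.02. Socs2, a feedback inhibitor best known from growth hormone signalling, rose by 1.11 and 1.10, and Cish by 0.55 and 1.06. Pias3, an inhibitor of STAT3, fell by 0.88 and 1.26 (log2 -0.88 and -1.26). Socs1 read 6.11 and 6.15 in normal B6 retina and 6.47 and 6.38 in vehicle explants, and 5.88 and 5.76, then 7.07 and 6.89, in 129, where it rose by 1.16. The change was larger in 129 by 0.87 (limma adjusted p = 0.0279), a call lost in each of 8 fits without 1 array of the normal or vehicle groups, with limma adjusted p up to 0.0984.

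Of 26 genes taken as responsive to STAT3, a list chosen with earlier results of these data known, all were measured. The paper had already picked some of them from these arrays, so the counts describe the list and do not test STAT3 activity. After damage 21 were called higher and 1 lower in B6, against 19.3% and 16.9% of all genes. In 129, 22 were called higher and 1 lower, against 19.1% and 17%. The list's medians were 1.57 and 2.05, and those of all genes -0.00 and -0.01. Without 129 normal replicate 2, 20 rose and 1 fell in 129. Lcn2, the acute phase protein lipocalin 2, read 7.59 and 7.35 in normal B6 retina and 13.80 and 14.04 in vehicle explants, and 5.71 and 5.95, then 12.37 and 12.07, in 129. It rose by 6.45 and 6.39 and stayed lower in 129 in all 3 states, by -1.64, -1.70 and -1.70. Steap4 rose by 6.59 and 6.35 and Timp1, an inhibitor of matrix proteases, by 6.31 and 4.72.

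The changes of these genes did not all favour 1 strain, with 5 called more positive in 129 and 4 less positive, against 1.74% and 1.32% of all genes. Edn2, an endothelin made by injured photoreceptors, read 8.44 and 8.13 in normal B6 retina, 5.2 and 5.61 in normal 129 retina, 11.32 and 11.33 in B6 vehicle explants and 10.46 and 10.64 in 129 vehicle explants. Its rise was larger in 129 by 2.10 (limma adjusted p = 6.01e-04), from a normal level that differed by -2.88 on the log2 scale. Cebpd (1.42) and Ccnd1 (1.39) also rose more in 129. In the normal retina both were lower in 129 (-1.55 and -0.56), the Ccnd1 call being lost in 3 of 12 fits without 1 array. In vehicle explants Cebpd read 11.32 and 11.36 in B6 and 11.24 and 11.19 in 129, and Ccnd1 was higher in 129 by 0.83. Timp1 rose less in 129 (-1.59), a call lost without B6 normal replicate 2, either B6 vehicle array, 129 normal replicate 2 or 129 3DIV replicate 2, with limma adjusted p up to 0.0962. Serpina3n, a protease inhibitor of reactive glia, also rose less in 129 (-1.03, limma adjusted p = 0.0101), and its call held without any 1 array. In the normal retina Serpina3n was already higher in 129, by 1.06 (limma adjusted p = 1.47e-04). Its vehicle explants read 10.26 and 10.53 in B6 and 10.45 and 10.41 in 129. Icam1 gave -0.93 (limma adjusted p = 0.00954) and Bcl3 -0.99 (limma adjusted p = 0.0154, and up to 0.0708 without B6 3DIV replicate 2, 129 normal replicate 1 or 129 3DIV replicate 2).

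With the inhibitor 4 of the 26 were higher and 7 lower in B6, and 1 higher and 7 lower in 129, against 8.59% and 12.5% of all genes in B6 and 7.28% and 7.86% in 129. Steap4 fell in both strains (-1.76 and -1.99), and so did Lcn2 (-1.55 and -1.54), Pim1 (-1.0 and -0.85) and Timp1 (-1.46 and -1.07), the last lost in 129 without 129 3DIV replicate 1 or either 129 inhibitor array (limma adjusted p up to 0.0793). Gfap, the filament protein of reactive glia, rose by 1.0 in B6. Il6, by contrast, fell in 129 alone, and Stat3 and Socs3 1416576_at had no call with the inhibitor. Socs3 1455899_x_at was called higher with it in B6 (0.31, limma adjusted p = 0.00865) and was level in 129.

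The genes whose pattern over the 12 arrays was most like that of a member were sought among 2793 genes with group means that spanned at least 1 on the log2 scale. Nearest to Il6 were Cd14, a receptor for bacterial lipids on myeloid cells (Pearson r 0.951), Dusp6 (0.944) and Sox8 (0.929). Nearest to Il6ra were Gpnmb (0.978), Cdsn (0.974) and 2410006H16Rik (0.974). Osmr lay nearest to Pdpn (0.998), B2m (0.997) and Cebpd (0.997), and Socs3 to Hkdc1 (0.997), Egr2 (0.996) and Irf9 (0.996). Stat3 lay nearest to Parp12 (0.996), Pros1 (0.995) and Igtp (0.994), and Il6st to Mt2 (0.992), Tap2 (0.991) and Ccl6 (0.99). Lif lay nearest to Rps26 (0.997), Rps18 (0.995) and Stt3a (0.995), and Clcf1 to Suclg2 (0.991), Tagln2 (0.988) and Gng10 (0.988). These coefficients are descriptions, and the points share arrays and the contrast of normal retina with explants. Lifr spanned 0.37 and was not compared.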

How the data were processed

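Labelled cRNA of normal retinas and explants was hybridized to 12 Affymetrix arrays, with 2 retinas for each condition. The authors deposited linear intensities from RMA (version not given in the sources used here). These were taken to log2 without a filter on signal, and 64 control probe sets were left out. Of the rest 34945 carried 1 symbol, 932 several and 9160 none. Group means were estimated from all 12 arrays with limma (version 3.58.1, R version 4.3.3). The eBayes step used neither a trend nor a robust fit, and had 6 residual and 4.69 prior degrees of freedom. Benjamini-Hochberg adjustment ran over all probe sets, separately for the 9 comparisons, and p under 0.05 was a call. The fit and the call were tried on simulated data for damage in B6 only, not for the other comparisons. Arrays of a group are biological replicates in the labels, which do not tell whether they came from separate animals, so the p-values measure the spread between these samples only. The number of arrays limits the precision. The methods also name a higher dose of CHIR99021 for explants.

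All probe sets with a member as their only symbol were reported. Of each gene list, up to 4 called genes with the largest differences in a comparison were eligible to be named, and for likeness the 3 genes with the highest Pearson r. Osm, and Serpina3n, Icam1 and Bcl3 for the strain difference in damage, were named outside that rule, after their values were seen. The members and lists were chosen with earlier results of these data known. Alternatives were the replicate block, a fit of the compared arrays alone, probe sets above the median level, cyclic loess, a trended and robust eBayes step, and each array left out. Protein sequences were not compared here. Promoter sequences are those of RefSeq on GRCm38.p6.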

Additional observations from a re-analysis of the deposited data

Results flagged for a closer look

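The effect of damage differed between the strains in 4 probe sets by the interaction term of the limma model. The rise was larger in 129 for Il6 1450297_at (1.53) and Osmr 1418674_at (0.96), and smaller in 129 for Socs3 1416576_at (-0.62) and Socs3 1455899_x_at (-0.41). The last was not called without any 1 of the 12 arrays. The effect of the GSK3 inhibitor differed between the strains for Il6 1450297_at (-1.63). Groups of 2 arrays were too small for a search for outlying samples.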

How the results depend on the processing

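Of 66 calls of the 25 probe sets over 9 comparisons, 48 were made under every alternative that tested them and without any 1 array, 18 were lost in at least 1, and 0 changed sign. The trended, robust eBayes step lost 0 and gained 10 calls, with 5 calls for the inhibitor in B6, 5 in 129 and 2 for its difference between strains in place of 3, 3 and 1. Above the median level only 16 of the 25 probe sets were tested, without Il6, so that 0 were called for that difference, and 0 of the calls still tested were lost. With the compared arrays alone 9 calls were lost and 3 gained, and 3 in place of 6 were called between the normal retinas. Cyclic loess gained 1 call, lost 0 and moved the median of all probe sets by at most 0.025 on the log2 scale. Without 1 array the calls numbered 15 to 18 for damage in B6, 16 to 19 in 129, 2 to 4 for the difference of damage between strains, 3 to 6 between normal retinas, 3 to 7 between vehicle explants and 5 to 8 between explants with the inhibitor. The lowest counts came without B6 3DIV replicate 1, 129 3DIV replicate 1 or 129 3DIV replicate 2 for the vehicle explants (3) and without 129 normal replicate 1 or 2 for the normal retinas (3). The cause of these changes was not tested. With the replicate block 4 calls were lost and 1 gained, with 18 calls for damage in B6 and 18 in 129. Deviations of arrays with the same number from their group means correlated at -0.11 to 0.04 over 15 pairs of groups. These values show no large shift shared by number, but cannot tell whether the numbers pair the samples. Of 612 counts of the gene lists, 520 stayed within 1.5 times. Low signal limits what can be seen of Il6, most of all in normal retina, since every array read below the median of all log2 values, 6.13.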
